A study of Mus musculus with 9 samples.

Results

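The Wnt pathway genes described here are 47 named ligands, secretion factors, receptors, destruction complex proteins, inhibitors and feedback targets. They are taken by gene symbol. Of the 47, 43 had a named probe on the array and 20 were measured, meaning that 3 or more of the 9 arrays gave a probe a detection p-value under 0.01. Over the whole array, 16593 genes had a named probe and 7354 were measured. The cells were cultured mouse salivary gland cancer stem cells of strain C57BL/6, exposed for 24 h to LF3, to ICG-001 or to the solvent DMSO. Each group had 3 arrays. LF3 is a small molecule described as blocking the binding of beta-catenin to TCF4, and ICG-001 is one described as binding the beta-catenin coactivator CBP. The labels give no doses. Nothing in them tells whether samples of 1 group came from different cultures, and the p-values therefore reflect sample-to-sample spread that may be technical only.

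Wnt ligands are lipid-modified in the endoplasmic reticulum, carried to the cell surface and bound there by Frizzled receptors together with Lrp5 or Lrp6. Without a ligand, the destruction complex of Axin, Apc, Gsk3 and casein kinase 1 phosphorylates beta-catenin, and Btrc marks it for breakdown. With a ligand bound, Dishevelled recruits the complex to the receptor, and beta-catenin accumulates and acts with TCF/LEF factors in the nucleus, where Axin2, Nkd1, Lgr5, Notum, Rnf43 and Znrf3 are widely used targets that also feed back on the pathway.

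Levels below are log2 intensities after background correction and quantile normalization, and each array's level belongs to 1 probe, so levels of different genes are not set against each other. A difference is called where its Benjamini-Hochberg adjusted p-value, from a limma fit over 10830 probes, was under 0.05. Mean deposited signals were 340.0 to 396.5 on the LF3 arrays, 368.3 to 409.4 on the ICG-001 arrays and 398.2 to 467.3 on the DMSO arrays, and each array detected between 9939 and 10897 of the 25697 probes. Residuals were widest on LF3 array 3 and DMSO array 1, at an SD of 0.194 and 0.191, against 0.124 to 0.161 on the other 7 arrays. Of 10 epithelial markers 2, Krt8 and Cldn7, were measured, and 7, Cdh1, Krt5, Krt7, Krt14, Krt18, Krt19 and Trp63, were detected on no array. Of 9 stem or progenitor markers 6 were measured, among them Cd44, Sox2, Sox9 and Aldh3a1, and 3, Cd24a, Prom1 and Aldh1a1, were detected on no array. Of the fibroblast markers 6 of 8 were detected on no array, as were 4 of 5 leukocyte and 6 of 6 endothelial markers.

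Detection came before any comparison. Among the members with a probe, 20 of 43 (46.5%) were measured, against 44.3% of all genes on the array. The measured members were 4 of 10 ligands (Wnt5a, Wnt5b, Wnt7b and Wnt10a), both secretion factors (Porcn and Wls), 6 of 11 receptors (Fzd2, Fzd6, Fzd7, Lrp5, Lrp6 and Ryk), 1 of 3 Dishevelled genes (Dvl1), 6 of 7 destruction complex genes and kinases (Apc, Gsk3a, Gsk3b, Csnk1d, Csnk1e and Btrc) and 1 of 5 extracellular inhibitors (Kremen1). All 9 arrays detected 15 of the 20. The exceptions were Wnt10a, Porcn, Fzd2, Lrp5 and Gsk3a.

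Axin2, Nkd1, Lgr5, Notum, Rnf43 and Znrf3, the members that are widely used target and feedback genes, were not detected. Other commonly used target genes, which are not members, are described further below. Beside the 20 measured members, 23 members with a probe, represented by 27 probes, had a detection p-value at or above 0.01 on each of the 9 arrays. Their levels lay between 4.23 and 5.06, whereas the lowest level of a detected probe was 5.12 to 5.48 depending on the array. The lowest detection p-value on any array was 0.05138 for Axin2, 0.05639 for Nkd1, 0.1015 for Rnf43, 0.14411 for Notum, 0.19549 for Znrf3 and 0.41228 for Lgr5. Wnt10b and Dvl2 came nearest to detection, each with a lowest value of 0.03509. The undetected members also held the ligands Wnt4, Wnt6, Wnt7a, Wnt9a and Wnt11, the receptors Fzd1, Fzd3, Fzd4, Fzd8 and Ror2, Dvl3, the kinase gene Csnk1a1, and the secreted inhibitors Dkk1, Dkk3 and Sfrp1. An undetected probe gives only an upper bound on its own signal, so no direction can be given for these genes under either compound. Nor does it bound the gene. A Btrc probe that read 4.28 to 4.48 was detected on 0 arrays, while the brightest Btrc probe read 8.68 to 9.17 on all 9. For the undetected members a low level cannot be told apart from a probe that misses the transcript. Fzd5, Fzd9, Axin1 and Lgr4 had no named probe and were not analysed here.

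**Figure D1:**
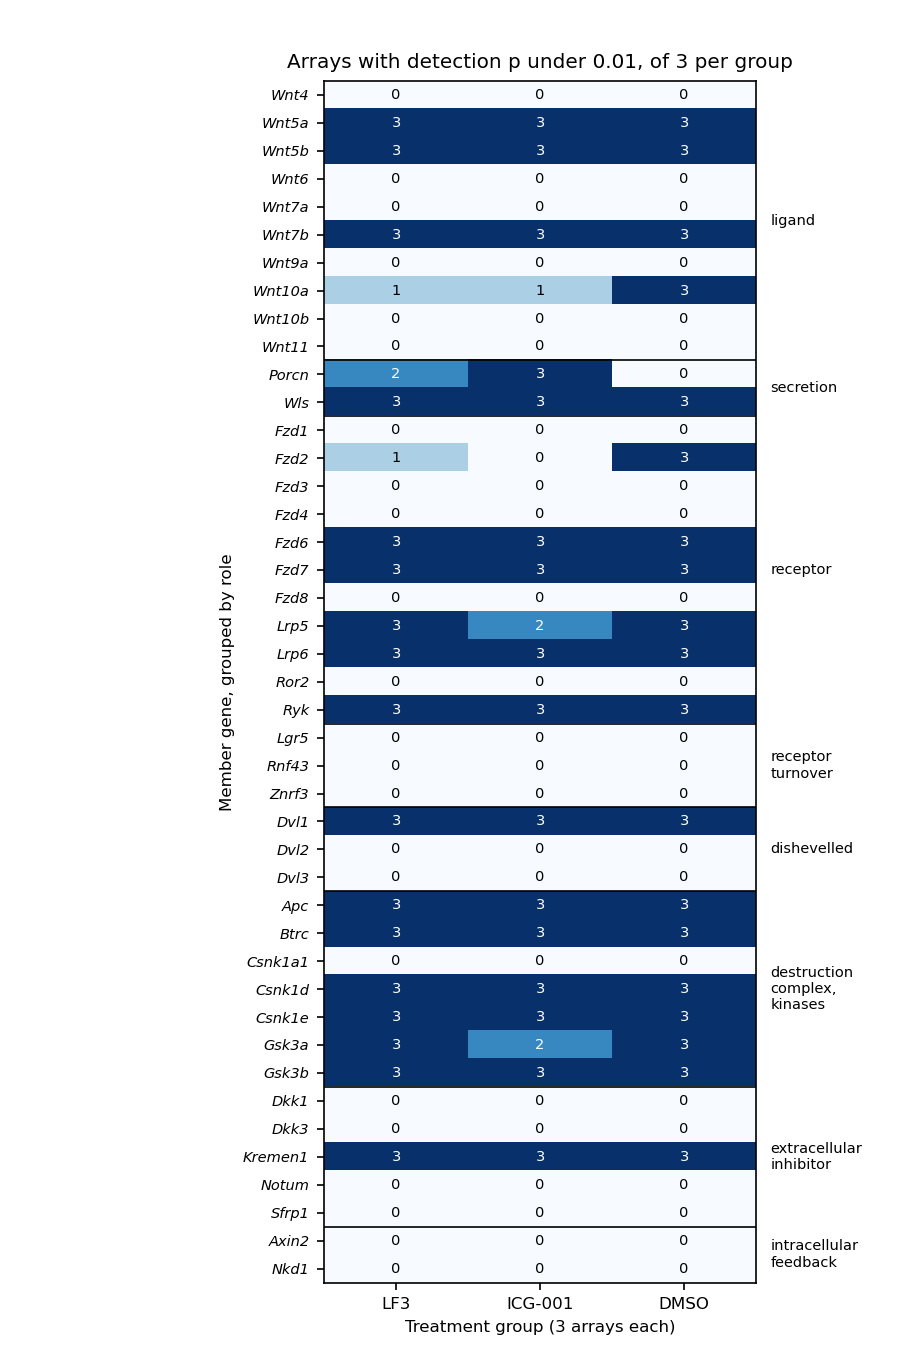
Number of arrays, of 3 in each of the LF3, ICG-001 and DMSO groups, on which each of the 43 members with a probe had a detection p-value under 0.01, ordered by role. Porcn was detected on 2 LF3, 3 ICG-001 and 0 DMSO arrays, and Fzd2 on 1 LF3, 0 ICG-001 and 3 DMSO arrays, while both intracellular feedback genes and all 3 receptor turnover genes were at 0 throughout.

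After LF3, 10 of the 20 measured members were called, 5 higher and 5 lower than after DMSO. Over all measured genes 22.2% were called in that comparison, 10.9% higher and 11.3% lower. The higher members were Porcn, Dvl1, Gsk3b, Csnk1d and Csnk1e, and the lower ones were Wnt5b, Fzd2, Fzd6, Ryk and Kremen1. The median log2 difference was -0.13 over the measured members and 0.01 over all genes. LF3 and DMSO arrays did not overlap for 14 of the 20, against 36.8% of all genes. The count of members called was 6 without LF3 array 2, 5 without DMSO array 2 and 6 without DMSO array 3, and under those 3 settings the share of all genes called was also lower, at 13.9%, 12.0% and 12.5%.

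After ICG-001, 10 of the 20 were likewise called, 4 higher and 6 lower than after DMSO. Over all genes 37.6% were called, 18.7% higher and 18.9% lower, so the members' share lay closer to the background than in the LF3 comparison. The higher members were Wnt7b, Porcn, Dvl1 and Csnk1e, and the lower ones were Wnt5b, Fzd2, Fzd7, Lrp5, Gsk3a and Kremen1. The median log2 difference was -0.20 over the measured members and -0.01 over all genes. ICG-001 and DMSO arrays did not overlap for 12 of the 20, against 50.7% of all genes. Without DMSO array 2 the count of members called was 5 of 20, and 29.5% of all genes were then called. Limited to the 15 members detected on all 9 arrays, 4 were higher and 4 lower after LF3, where 24.5% of all such genes were called, and 3 were higher and 4 lower after ICG-001, where 39.9% were called. Both comparisons use the same 3 DMSO arrays, so their values for a gene are given side by side and their likeness is not counted as a result.

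Scaling each array by its median instead of by quantiles put the median of all genes at -0.24 in the LF3 comparison and at -0.10 in the ICG-001 comparison. The share of called genes that were higher was then 8.66% after LF3, against 49.1% with quantile normalization, and 34.9% after ICG-001, against 49.7%. Under that scaling 1 member was higher and 9 were lower after LF3, and 2 were higher and 8 lower after ICG-001. With the median taken over the detected probes alone, a scaling added after the data had been seen, 62.3% of the genes called after LF3 were higher and 5 members were higher and 3 lower. Where scaling by the median of all probes ends a call, the difference relative to the median of all genes is given below.

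**Figure D2:**
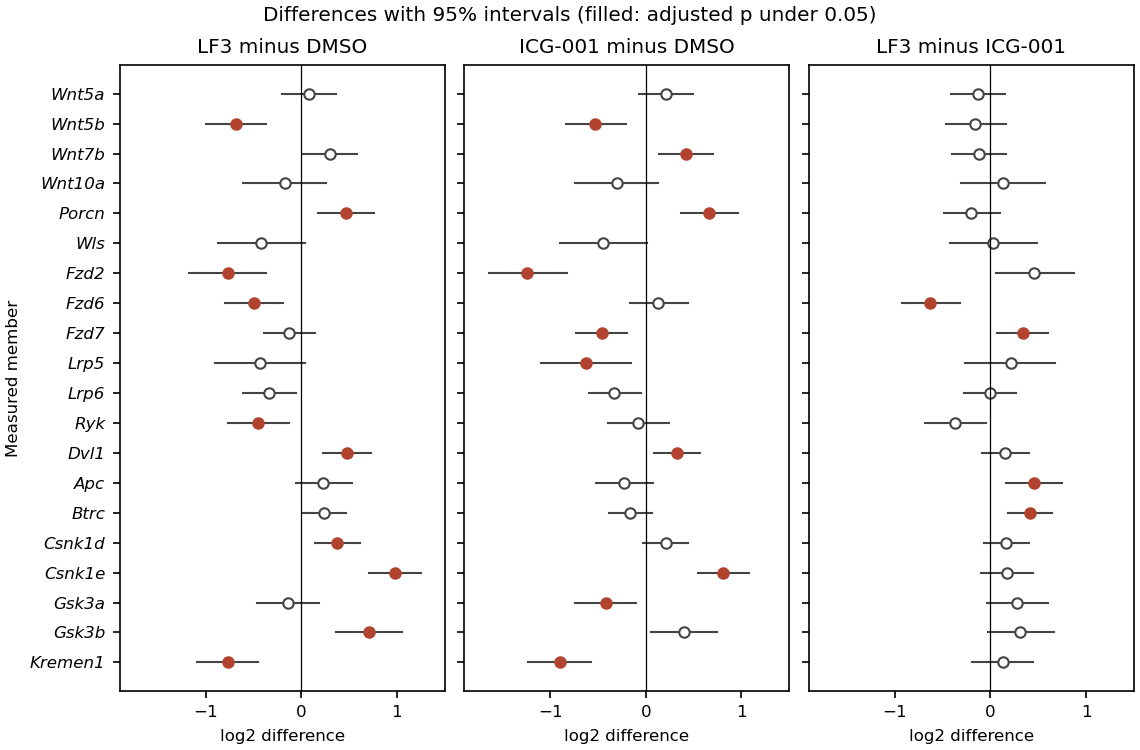
Log2 differences with 95% intervals for the 20 measured members in LF3 minus DMSO, ICG-001 minus DMSO and LF3 minus ICG-001, with filled points for an adjusted p under 0.05. Csnk1e lies farthest to the right in both DMSO comparisons, at 0.98 after LF3 and 0.81 after ICG-001, and Fzd2 farthest to the left after ICG-001, at -1.24.

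Among the ligands, Wnt5b, which is best known for signalling that does not need beta-catenin, was lower after both compounds. Its levels were 5.35, 5.85 and 5.44 on the LF3 arrays, 5.69, 5.66 and 5.76 on the ICG-001 arrays and 6.22, 6.43 and 6.04 on the DMSO arrays. Every treated array lay below every DMSO array. The log2 difference was -0.68 (SE 0.15), 1.60-fold lower, after LF3 with an adjusted p of 0.00531, and -0.53 (SE 0.15), 1.44-fold lower, after ICG-001 with an adjusted p of 0.012. The LF3 call held under all 24 alternatives, and the ICG-001 call ended without DMSO array 2 (-0.43, adjusted p 0.0623). With no background correction the same differences of Wnt5b were -0.42 after LF3 and -0.33 after ICG-001. In these bulk samples fewer cells with a transcript and less RNA per cell cannot be told apart, here and for the genes that follow.

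Promoters on a chromosome not reported here were left out for the members. The RefSeq table of build GRCm38.p6 otherwise held a promoter for 26 of the 47 members and for 8 of the 20 measured ones. The 250 bases before each start were searched on both strands for the TCF/LEF words CTTTGAT and CTTTGAA. Either word was present in 4 of the members' 33 promoters (12.1%). Of all 32851 promoters of that length, with no chromosome left out, 7.48% held either word. These shares describe the letters and show no binding. Wnt5b is listed with 3 starts, and the one at chr6:119449387-119449636, minus strand, held CTTTGAT 65 bases before the start, a word found in 3.21% of all promoters. It is printed because Wnt5b was called after both compounds, with the word in capitals.
Wnt5b promoter: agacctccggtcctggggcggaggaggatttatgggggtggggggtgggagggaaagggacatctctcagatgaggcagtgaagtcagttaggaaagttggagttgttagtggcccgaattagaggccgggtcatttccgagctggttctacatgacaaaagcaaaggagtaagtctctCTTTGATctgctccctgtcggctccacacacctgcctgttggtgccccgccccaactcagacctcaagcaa

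Wnt7b, a ligand that can act through beta-catenin, was called higher after ICG-001 and did not pass the test after LF3. Its brighter probe read 8.50, 8.50 and 8.42 after LF3, 8.65, 8.72 and 8.42 after ICG-001 and 8.38, 8.17 and 7.98 after DMSO. All treated arrays lay above the highest DMSO array, but by little on the lowest of them. The log2 difference was 0.30 (SE 0.13, adjusted p 0.12) after LF3 and 0.42 (SE 0.13, 1.34-fold, adjusted p 0.0217) after ICG-001. The ICG-001 call ended without ICG-001 array 1 (adjusted p 0.0668), ICG-001 array 2 (0.0928), DMSO array 2 (0.0598) or DMSO array 3 (0.0971), and the LF3 difference passed without DMSO array 1 (0.40, adjusted p 0.0395). Under median scaling the ICG-001 difference was 0.31 with an adjusted p of 0.166, and 0.40 relative to all genes. The dimmer Wnt7b probe differed by 0.03 after LF3 (adjusted p 0.938) and by 0.34 after ICG-001 (adjusted p 0.145).

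Wnt5a, the close relative of Wnt5b, did not pass the test against DMSO for either compound. It had levels of 6.71, 6.70 and 6.68 after LF3, 7.06, 6.61 and 6.80 after ICG-001 and 6.50, 6.75 and 6.58 after DMSO. Both treated groups overlapped the DMSO range, with log2 differences of 0.08 after LF3 (adjusted p 0.682) and 0.21 after ICG-001 (adjusted p 0.224), and under median scaling the LF3 difference of Wnt5a was -0.20. Wnt10a, a ligand known from skin appendages and teeth, lay near the detection limit. It read 5.12, 4.95 and 5.59 after LF3, 5.50, 5.14 and 4.63 after ICG-001 and 5.43, 5.23 and 5.51 after DMSO, and it was detected on 1 LF3, 1 ICG-001 and 3 DMSO arrays. Its differences of -0.17 after LF3 (adjusted p 0.583) and -0.30 after ICG-001 (adjusted p 0.264) did not pass.

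Porcn, the acyltransferase that attaches the lipid to Wnt ligands, was higher after both compounds. Its levels were 5.52, 5.70 and 5.20 after LF3, 5.83, 5.64 and 5.54 after ICG-001 and 5.03, 5.02 and 4.97 after DMSO. It was detected on 2 LF3, 3 ICG-001 and 0 DMSO arrays, so it counts as measured through the treated arrays alone. A gene that passes the detection filter in this way had to be higher there, so its tests and its place among the called members are a description. The DMSO levels are upper bounds, and Porcn was at least 1.35-fold higher after ICG-001 (fitted log2 difference 0.66, adjusted p 0.0019). After LF3 the fitted log2 difference was 0.47 (adjusted p 0.0275). The probe was not above background on LF3 array 3 either, so no bound is given for LF3. The ICG-001 call held under every alternative that measured the gene. The LF3 call ended under 9 of 22, among them the fits without LF3 array 1 (adjusted p 0.067), LF3 array 2 (0.11), DMSO array 2 (0.0736) and DMSO array 3 (0.0844), and median scaling (0.34, adjusted p 0.107, and 0.58 relative to all genes).

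Wls, the carrier that takes lipid-modified ligands to the cell surface, did not pass the test. It read 7.81, 7.48 and 8.21 after LF3, 8.04, 7.89 and 7.49 after ICG-001 and 7.83, 8.39 and 8.55 after DMSO. DMSO array 1 lay within both treated ranges and the other DMSO arrays lay above them. The log2 differences were -0.42 (SE 0.21, adjusted p 0.177) after LF3 and -0.45 (SE 0.21, adjusted p 0.114) after ICG-001. Without DMSO array 1, one of the arrays with the widest residuals, Wls differed by -0.63 after LF3 (adjusted p 0.0397) and by -0.66 after ICG-001 (adjusted p 0.0229).

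Of the 6 measured receptors none was called higher after either compound, 3 were called lower after LF3, where 11.3% of all genes were lower, and 3 after ICG-001, where 18.9% were lower. Fzd2, a Frizzled receptor used by Wnt5a among other ligands, had the largest difference of these after ICG-001. It read 5.60, 5.18 and 5.10 after LF3, 4.91, 4.65 and 4.93 after ICG-001 and 5.69, 6.50 and 6.01 after DMSO. Every treated array lay below every DMSO array, with detection on 1 LF3, 0 ICG-001 and 3 DMSO arrays, so Fzd2 counts as measured mainly through the DMSO arrays and the same limit applies as for Porcn. After LF3 the fitted log2 difference was -0.77 (SE 0.19, adjusted p 0.0112), with the probe not above background on LF3 arrays 2 and 3, and it did not pass without DMSO array 2 (-0.56, adjusted p 0.0556). After ICG-001 Fzd2 was at least 1.67-fold lower (fitted log2 difference -1.24, SE 0.19, adjusted p 0.000208), and the call held under all alternatives that measured it, at -0.70 with no background correction.

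Fzd6 and Fzd7 differed between the compounds. Fzd6, a receptor best known from planar cell polarity, read 5.48, 5.56 and 5.54 after LF3, 6.28, 6.05 and 6.13 after ICG-001 and 5.76, 5.96 and 6.34 after DMSO. The LF3 arrays lay below all others, and the ICG-001 arrays lay inside the DMSO range. The log2 difference from DMSO was -0.50 (SE 0.14, 1.41-fold lower, adjusted p 0.0246) after LF3 and 0.13 (adjusted p 0.493) after ICG-001. The LF3 call of Fzd6 ended without LF3 array 1 (adjusted p 0.061), LF3 array 2 (0.0547), DMSO array 2 (0.0566) or DMSO array 3 (-0.34, adjusted p 0.114). With the median over the detected probes it was -0.41 (adjusted p 0.0501), and -0.47 relative to all genes.

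Fzd7, a receptor often linked to beta-catenin signalling in stem cells, read 7.01, 7.08 and 6.98 after LF3, 6.84, 6.62 and 6.59 after ICG-001 and 6.97, 7.27 and 7.20 after DMSO. The ICG-001 arrays lay below all others, and the LF3 range overlapped that of DMSO. Its log2 difference was -0.13 (adjusted p 0.499) after LF3 and -0.46 (SE 0.12, 1.38-fold lower, adjusted p 0.00914) after ICG-001, and the ICG-001 call held under all 24 alternatives. Under median scaling the LF3 difference of Fzd7 was -0.42 with an adjusted p of 0.0434, and -0.18 relative to all genes.

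The coreceptors Lrp5 and Lrp6, which pass the signal on to the destruction complex, had negative differences of which 1 of 4 passed. Lrp5 read 5.74, 5.71 and 6.22 after LF3, 5.93, 5.83 and 5.28 after ICG-001 and 5.85, 6.72 and 6.38 after DMSO, so both treated groups overlapped the lowest DMSO array. It differed by -0.43 (SE 0.22, adjusted p 0.182) after LF3 and by -0.63 (SE 0.22, 1.55-fold lower, adjusted p 0.0363) after ICG-001. The ICG-001 call of Lrp5 ended without ICG-001 array 2 (adjusted p 0.0504), ICG-001 array 3 (-0.44, 0.164), DMSO array 2 (-0.43, 0.169) or DMSO array 3 (0.0901), and the LF3 difference passed without DMSO array 1 (-0.66, adjusted p 0.0349). Lrp6 read 6.61, 6.80 and 6.70 after LF3, 6.82, 6.51 and 6.80 after ICG-001 and 6.89, 7.05 and 7.17 after DMSO. All 6 treated Lrp6 values lay below the DMSO values, but the differences of -0.34 after LF3 (adjusted p 0.076) and -0.33 after ICG-001 (adjusted p 0.0587) did not pass with the processing used here. The Lrp6 difference passed under 3 of 24 alternatives after LF3 and under 6 of 24 after ICG-001. With array weights the adjusted p of Lrp6 was 0.0336 after LF3 and 0.0115 after ICG-001. Requiring detection on all 9 arrays gave 0.0487 after ICG-001. Without DMSO array 1 the same Lrp6 differences were -0.41 after LF3 (adjusted p 0.0407) and -0.40 after ICG-001 (adjusted p 0.0327).

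Ryk, a receptor with an inactive kinase domain, had 3 measured probes that differed in what they showed. The brightest, which stands for the gene, read 10.67, 10.39 and 9.98 after LF3, 10.67, 10.70 and 10.77 after ICG-001 and 10.80, 10.79 and 10.79 after DMSO. LF3 array 3 gave the lowest of the 9 values, and all LF3 arrays lay below the DMSO arrays. This probe was called lower after LF3 (-0.45, SE 0.15, adjusted p 0.0463), but the call ended under 16 of 24 alternatives, and without LF3 array 3 the difference was -0.26 (adjusted p 0.151). Leaving out LF3 array 2 or any ICG-001 or DMSO array also ended it, with adjusted p-values for Ryk of 0.0909 without LF3 array 2, 0.0599, 0.0634 and 0.059 without ICG-001 arrays 1, 2 and 3, and 0.0712, 0.111 and 0.106 without DMSO arrays 1, 2 and 3. The next probe differed by 0.03 after LF3 and -0.02 after ICG-001, and the dimmest by 0.16 (adjusted p 0.432) after LF3 and -0.44 (adjusted p 0.0182) after ICG-001. With the mean of the gene's probes in place of the brightest, Ryk differed by -0.09 after LF3 (adjusted p 0.582).

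Kremen1, a Dickkopf receptor that removes Lrp6 from the cell surface and is the 1 measured gene of the 5 extracellular inhibitors, was lower after both compounds. It read 6.41, 6.05 and 6.32 after LF3, 6.37, 5.95 and 6.05 after ICG-001 and 6.80, 7.16 and 7.13 after DMSO. Every treated array lay below every DMSO array. The log2 difference was -0.77 (SE 0.15, 1.71-fold lower, adjusted p 0.00307) after LF3 and -0.90 (SE 0.15, 1.87-fold lower, adjusted p 0.000387) after ICG-001. Both calls held under all 24 alternatives, between -1.03 and -0.56 after LF3 and between -1.03 and -0.65 after ICG-001.

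**Figure D3:**
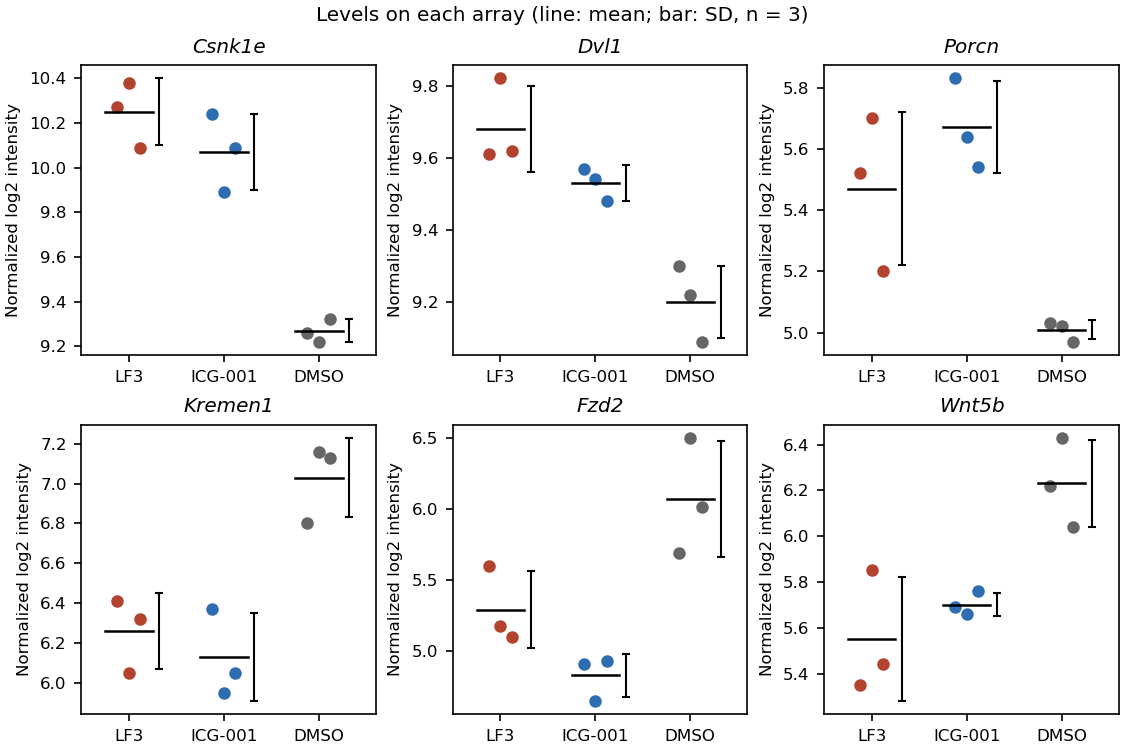
Normalized log2 intensity on each array for Csnk1e, Kremen1, Fzd2, Wnt5b, Porcn and Dvl1, the members called against DMSO for both compounds, with the mean as a line and the SD as a bar (n = 3 per group). Csnk1e sits between 9.89 and 10.38 on the 6 treated arrays and between 9.22 and 9.32 on the DMSO arrays, and Kremen1 between 5.95 and 6.41 on the treated arrays and between 6.80 and 7.16 on the DMSO arrays.

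Casein kinase 1 epsilon, encoded by Csnk1e, phosphorylates Dishevelled and other pathway proteins, and its probe had the largest positive difference among the members after both compounds. Levels were 10.27, 10.38 and 10.09 after LF3, 10.24, 9.89 and 10.09 after ICG-001 and 9.26, 9.22 and 9.32 after DMSO. The mean was 10.25 ± 0.15 after LF3, 10.07 ± 0.17 after ICG-001 and 9.27 ± 0.05 after DMSO (SD, n = 3 each), and every treated array lay above every DMSO array. Csnk1e was 1.97-fold higher after LF3 (log2 difference 0.98, SE 0.13, adjusted p 0.000191) and 1.75-fold higher after ICG-001 (0.81, SE 0.13, adjusted p 0.000243), and both calls held under all 24 alternatives. A dimmer Csnk1e probe differed by 0.79 after LF3 (adjusted p 0.0342) and by 0.14 after ICG-001 (adjusted p 0.676), so the ICG-001 call rests on the brighter probe, and with the mean of the probes Csnk1e differed by 0.48 after ICG-001 (adjusted p 0.0353). The table lists 4 Csnk1e starts, none with a TCF/LEF word in the 250 bases before it. The one at chr15:79441819-79442068, minus strand, is printed as a promoter without the word, to set beside that of Wnt5b, and 80.8% of its bases are G or C, against 55.6% of the Wnt5b sequence. That contrast depends on the starts printed. The other Wnt5b starts had 53.2% and 75.2%, and the other Csnk1e starts 61.2% to 80.8%.
Csnk1e promoter: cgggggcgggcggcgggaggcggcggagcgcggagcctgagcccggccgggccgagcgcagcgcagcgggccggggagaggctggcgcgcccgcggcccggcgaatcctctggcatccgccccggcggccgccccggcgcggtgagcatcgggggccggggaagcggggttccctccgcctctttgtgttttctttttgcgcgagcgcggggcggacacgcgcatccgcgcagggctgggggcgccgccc

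Csnk1d, the closest relative of Csnk1e, had 5 measured probes. The brightest read 10.54, 10.57 and 10.63 after LF3, 10.42, 10.38 and 10.45 after ICG-001 and 10.32, 10.17 and 10.13 after DMSO. No treated array overlapped the DMSO arrays. The difference was 0.37 (SE 0.11, 1.30-fold, adjusted p 0.0273) after LF3 and 0.21 (adjusted p 0.153) after ICG-001. The LF3 call of Csnk1d ended without LF3 array 2 (adjusted p 0.0631), LF3 array 3 (0.0561), DMSO array 2 (0.0925) or DMSO array 3 (0.10), and under median scaling (0.16, adjusted p 0.458, and 0.40 relative to all genes). Another 3 Csnk1d probes were called higher after LF3, at 0.42, 0.61 and 0.41, and the dimmest differed by -0.05 (adjusted p 0.829). After ICG-001 2 of the dimmer probes were called, at 0.37 (adjusted p 0.0372) and 0.48 (adjusted p 0.0364).

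Dvl1, the Dishevelled protein gene that was measured, was higher after both compounds. It read 9.61, 9.82 and 9.62 after LF3, 9.57, 9.54 and 9.48 after ICG-001 and 9.30, 9.22 and 9.09 after DMSO. All treated arrays lay above all DMSO arrays. The log2 difference was 0.48 (SE 0.12, 1.40-fold, adjusted p 0.00992) after LF3 and 0.33 (SE 0.12, 1.25-fold, adjusted p 0.0383) after ICG-001. Median scaling ended both calls, at 0.22 after LF3 (adjusted p 0.302, 0.46 relative to all genes) and 0.22 after ICG-001 (adjusted p 0.301, 0.32 relative to all genes). The ICG-001 call of Dvl1 also ended without ICG-001 arrays 1, 2 or 3 (adjusted p 0.104, 0.0977 and 0.0682) and without DMSO arrays 2 or 3 (0.0827 and 0.131). Its dimmer probe differed by 0.18 (adjusted p 0.365) after LF3 and by -0.03 (adjusted p 0.897) after ICG-001.

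The glycogen synthase kinase 3 genes, whose products phosphorylate beta-catenin, had unlike calls. Gsk3b read 7.67, 7.81 and 7.70 after LF3, 7.29, 7.29 and 7.66 after ICG-001 and 7.35, 7.01 and 6.69 after DMSO, so the LF3 arrays lay above all DMSO arrays and the ICG-001 arrays overlapped them. It was higher after LF3 (0.71, SE 0.16, 1.63-fold, adjusted p 0.00744), and after ICG-001 the difference of 0.40 (adjusted p 0.0683) did not pass. Without DMSO array 1 the ICG-001 difference of Gsk3b was 0.56 (adjusted p 0.0109), and under median scaling the LF3 difference was 0.41 (adjusted p 0.0628), or 0.65 relative to all genes. Gsk3a read 5.56, 5.66 and 5.76 after LF3, 5.06, 5.62 and 5.46 after ICG-001 and 5.92, 5.87 and 5.61 after DMSO. ICG-001 array 1 was the lowest of the 9, and the ICG-001 and DMSO ranges overlapped by a narrow margin. The difference was -0.14 (adjusted p 0.538) after LF3 and -0.42 (SE 0.15, 1.34-fold lower, adjusted p 0.0388) after ICG-001. That Gsk3a call ended without ICG-001 array 1 (-0.26, adjusted p 0.188), ICG-001 array 3 (0.0605), DMSO array 1 (0.104) or DMSO array 2 (0.111). LF3 minus ICG-001 was 0.31 for Gsk3b (adjusted p 0.14) and 0.28 for Gsk3a (adjusted p 0.15), neither past the threshold.

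The promoters of this family pair are printed because the paralogs had unlike calls. Gsk3a, at chr7:25237852-25238101 on the minus strand, held CTTTGAA on the opposite strand 152 bases before the start, shown in capitals as its reverse complement. CTTTGAA was found in 4.46% of all promoters. Gsk3b, at chr16:38088751-38089000 on the plus strand, held neither word.
Gsk3a promoter: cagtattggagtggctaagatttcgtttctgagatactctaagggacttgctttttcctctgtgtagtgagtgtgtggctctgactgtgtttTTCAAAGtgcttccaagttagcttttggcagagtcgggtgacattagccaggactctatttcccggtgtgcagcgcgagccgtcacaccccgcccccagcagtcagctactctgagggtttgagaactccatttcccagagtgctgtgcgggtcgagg
Gsk3b promoter: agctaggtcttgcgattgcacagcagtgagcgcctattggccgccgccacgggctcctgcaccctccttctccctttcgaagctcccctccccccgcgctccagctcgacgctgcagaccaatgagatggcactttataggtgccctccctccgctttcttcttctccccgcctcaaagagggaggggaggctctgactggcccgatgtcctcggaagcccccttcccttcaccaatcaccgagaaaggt

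Apc, the scaffold of the destruction complex, and Btrc, the ubiquitin ligase subunit that recognises phosphorylated beta-catenin, were not called against DMSO for either compound. Apc read 7.02, 7.05 and 6.98 after LF3, 6.24, 6.67 and 6.77 after ICG-001 and 6.80, 6.84 and 6.71 after DMSO, with differences from DMSO of 0.23 after LF3 (adjusted p 0.246) and -0.23 after ICG-001 (adjusted p 0.217). Btrc read 9.17, 9.10 and 9.15 after LF3, 8.77, 8.68 and 8.76 after ICG-001 and 8.88, 8.86 and 8.96 after DMSO, with differences from DMSO of 0.24 after LF3 (adjusted p 0.121) and -0.17 after ICG-001 (adjusted p 0.24). For both genes the LF3 arrays lay above all others, and for Btrc the ICG-001 arrays also lay below all DMSO arrays. Under median scaling the LF3 differences were -0.07 for Apc and -0.04 for Btrc, or 0.17 and 0.20 relative to all genes.

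Set directly against each other, LF3 and ICG-001 differed in 4 of the 20 measured members, 3 higher and 1 lower after LF3, whereas 39.7% of all measured genes were called in that comparison, 20.2% higher and 19.5% lower. The doses are not known, so the comparison is between these treated samples. The median log2 difference was 0.14 over the members and 0.00 over all genes, and the groups did not overlap for 9 of the 20, against 51.6% of all genes. Fzd6 was 1.55-fold lower after LF3 (-0.63, SE 0.14, adjusted p 0.00336), with levels from 5.48 to 5.56 after LF3 and from 6.05 to 6.28 after ICG-001, and this call held under all 24 alternatives. Its size was -0.38 with no background correction.

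Btrc was 1.33-fold higher after LF3 than after ICG-001 (0.41, SE 0.11, adjusted p 0.00793), and Apc was 1.37-fold higher (0.46, SE 0.14, adjusted p 0.0171). Leaving out ICG-001 array 1, where Apc was lowest, gave 0.30 (adjusted p 0.0899). The dimmer Btrc probe differed by 0.21 (adjusted p 0.331). Fzd7 was 1.26-fold higher after LF3 (0.34, SE 0.12, adjusted p 0.0418), and that call ended under 10 of 24 alternatives, including the fits without LF3 array 1 (adjusted p 0.0802), LF3 array 2 (0.109), LF3 array 3 (0.0529), ICG-001 array 2 (0.129) and ICG-001 array 3 (0.138). Under median scaling, where the median of all genes was -0.14 and 27.4% of the called genes were higher after LF3, against 50.9%, the differences were 0.22 (adjusted p 0.284) for Btrc, 0.29 (0.176) for Apc and 0.16 (0.46) for Fzd7, none past the threshold. Relative to all genes these were 0.37, 0.43 and 0.30.

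**Figure D4:**
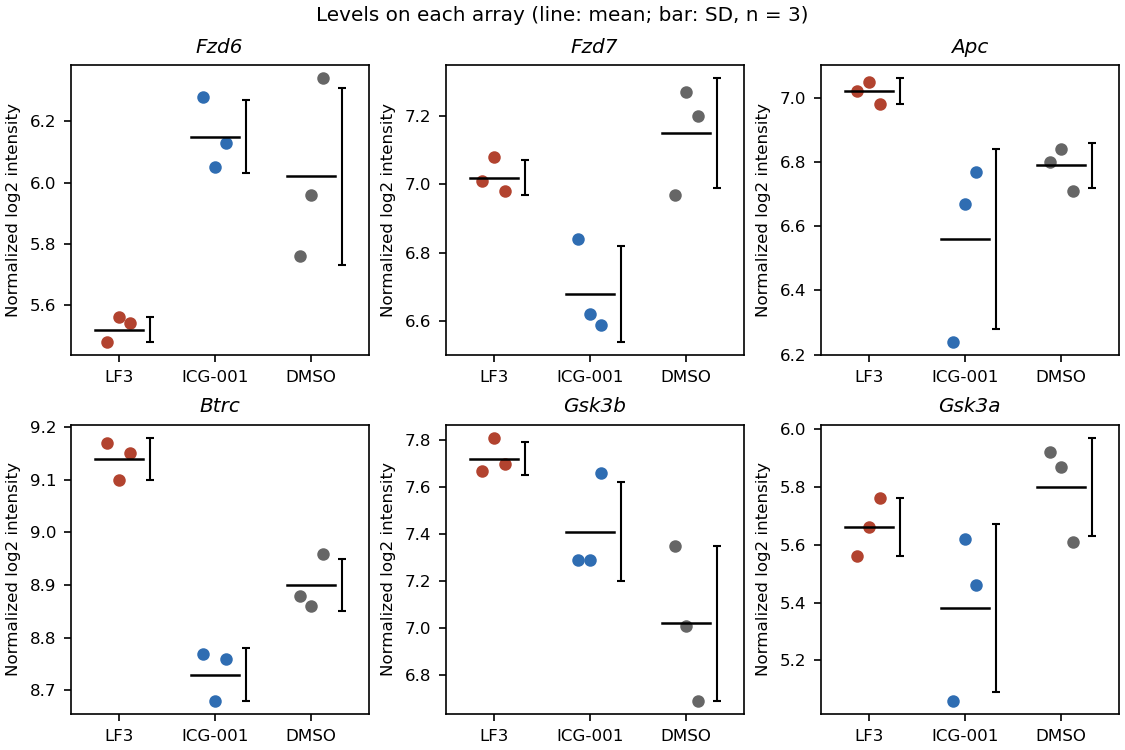
Normalized log2 intensity on each array for Fzd6, Fzd7, Apc, Btrc, Gsk3b and Gsk3a, which were called between the compounds or against DMSO for 1 compound, with the mean as a line and the SD as a bar (n = 3 per group). LF3 arrays sit at the bottom for Fzd6, between 5.48 and 5.56, and at the top for Btrc, between 9.10 and 9.17.

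For the members called against DMSO by both compounds, the direct difference between the compounds did not pass the test. It was 0.17 for Csnk1e (95% interval -0.10 to 0.44, adjusted p 0.297), 0.13 for Kremen1 (adjusted p 0.516), -0.16 for Wnt5b (adjusted p 0.423), -0.20 for Porcn (adjusted p 0.273) and 0.15 for Dvl1 (adjusted p 0.309). Fzd2, detected on 1 LF3 and 0 ICG-001 arrays, lay near or below background in both groups, so no size is given for its difference between the compounds. The brightest Ryk probe differed by -0.37 (adjusted p 0.0647), passing without LF3 array 1 (-0.53, adjusted p 0.0121), and the dimmest by 0.60 (adjusted p 0.00299), in the opposite direction. The dimmer Csnk1e probe was higher after LF3 than after ICG-001, by 0.64 (adjusted p 0.0494).

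**Figure D5:**
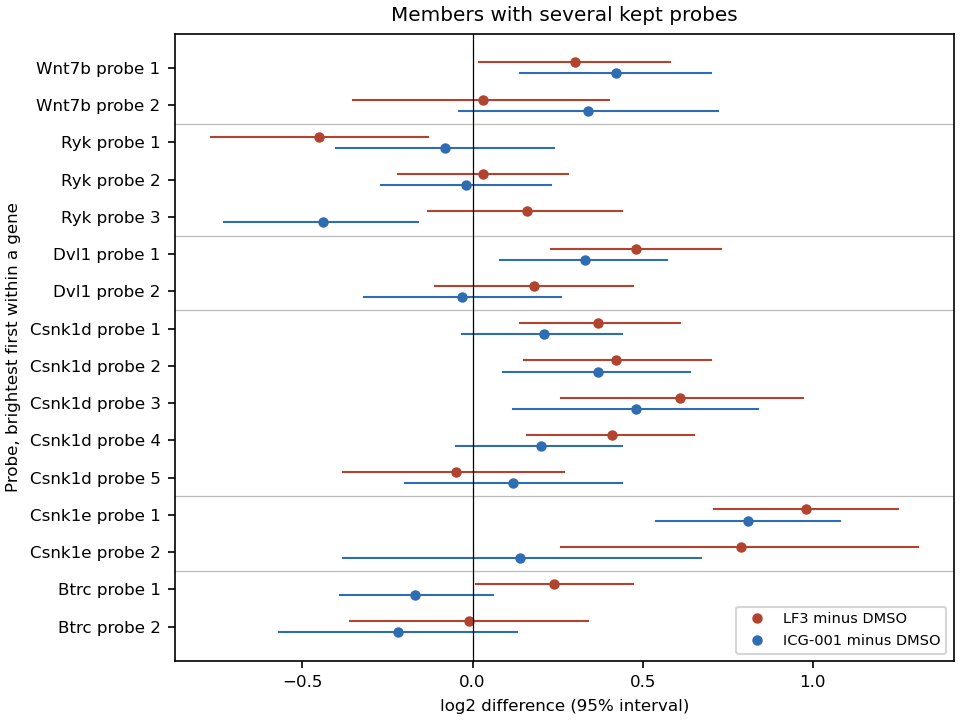
Log2 differences with 95% intervals for each measured probe of the 6 members with several, LF3 minus DMSO and ICG-001 minus DMSO, with the brightest probe of a gene at the top. The Csnk1d probes 1 to 4 lie between 0.37 and 0.61 after LF3, whereas the Ryk probes lie between -0.45 and 0.16.

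Other genes of the pathway were taken from lists of 98 genes, of which 89 had a named probe, 34 were measured and 53 were detected on no array. After LF3 3 of the 34 were higher and 5 lower than after DMSO, and after ICG-001 5 were higher and 11 lower. These 8 of 34 after LF3 lie near the 22.2% of all genes called, and the 16 of 34 after ICG-001 stand beside 37.6%. Among 10 measured nuclear effectors 1 was higher and 3 were lower after LF3, and 1 was higher and 6 were lower after ICG-001. Among 8 measured genes commonly used as targets, 1 was higher and 1 lower after LF3, and 2 were higher and 2 lower after ICG-001. None of the 14 other ligands and agonists was measured. Between the compounds 6 of the 34 were higher and 4 lower after LF3, where 39.7% of all genes were called.

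Csnk1g1, encoding casein kinase 1 gamma, had the lowest adjusted p of these genes after LF3. It read 6.10, 5.98 and 6.13 after LF3, 5.06, 5.28 and 5.22 after ICG-001 and 5.15, 4.70 and 4.77 after DMSO, with detection on 3 LF3, 0 ICG-001 and 1 DMSO arrays. Csnk1g1 thus counts as measured mainly through the LF3 arrays, and the same limit applies as for Porcn, so its tests are a description. The fitted difference from DMSO after LF3 was 1.19 (SE 0.13, adjusted p 7.88e-05), with the probe above background on only 1 DMSO array. It was at least 1.67-fold higher after LF3 than after ICG-001 (fitted 0.88, adjusted p 0.000221). Id2, an inhibitor of helix-loop-helix factors often listed as a Wnt target, read 7.19, 6.97 and 6.52 after LF3, 6.12, 5.76 and 5.94 after ICG-001 and 7.78, 7.75 and 7.45 after DMSO. The 3 groups of Id2 did not overlap, and it was lower after LF3 (-0.77, adjusted p 0.006), lower after ICG-001 (-1.72, adjusted p 4.51e-06) and higher after LF3 than after ICG-001 (0.95, adjusted p 0.000633).

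Of the nuclear effectors, the coactivator gene Bcl9l differed from DMSO by -0.62 after LF3 (adjusted p 0.00636) and by -0.68 after ICG-001 (adjusted p 0.00164). Ctnnbip1, which encodes an inhibitor that binds beta-catenin, differed by -0.42 after LF3 (adjusted p 0.0377) and by -0.90 after ICG-001 (adjusted p 0.000155). Its LF3 call ended without LF3 array 2 (adjusted p 0.0894), LF3 array 3 (0.0999), ICG-001 array 2 (0.0531), DMSO array 2 (0.128) or DMSO array 3 (0.14). Tcf7l2, which encodes TCF4, differed by -0.45 after LF3 (adjusted p 0.02) and by -0.64 after ICG-001 (adjusted p 0.0011). The LF3 call of Tcf7l2 ended without LF3 array 2 (adjusted p 0.0616), LF3 array 3 (0.0547), DMSO array 2 (0.0744) or DMSO array 3 (0.0744). The target gene Myc was higher after ICG-001, by 1.12 (adjusted p 0.000419), with levels of 8.04, 8.20 and 8.16 after ICG-001 and 7.58, 6.78 and 6.70 after DMSO. After LF3 the difference of Myc was 0.32 (adjusted p 0.243), and 0.60 without DMSO array 1 (adjusted p 0.004). After ICG-001 Sox9 differed by -0.23 (adjusted p 0.215). It was higher after LF3, by 0.51 (adjusted p 0.019), but not without LF3 array 1 (0.45, adjusted p 0.0621), LF3 array 2 (0.47, 0.0676) or DMSO array 3 (0.41, 0.0863), nor under median scaling (0.29, 0.189, and 0.53 relative to all genes). Between the compounds, Cd44 differed by -0.84 (adjusted p 7.67e-05) and the polarity gene Vangl1 by 0.77 (adjusted p 0.000695), LF3 minus ICG-001.

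Markers of other cell types stood as follows beside these differences. The summed signal of 8 fibroblast markers was 247.0 to 292.5 on the LF3 arrays, 253.2 to 262.7 on the ICG-001 arrays and 269.0 to 342.2 on the DMSO arrays. Within that list Col1a1 was at least 1.47-fold lower after ICG-001 (fitted log2 difference -1.32, adjusted p 0.00032). It was detected on 2 LF3, 0 ICG-001 and 3 DMSO arrays, and so passed the filter only through groups where it was higher. The same limit applies to it as for Porcn. Pdgfra, detected on all 9 arrays, differed by -0.18 after LF3 (adjusted p 0.363) and by -0.15 after ICG-001 (adjusted p 0.409). Col1a2, Col3a1, Pdgfrb, Dcn, Lum and Thy1 were detected on no array. The summed signal of 10 epithelial markers was 271.1 to 313.4 after LF3, 273.3 to 302.7 after ICG-001 and 278.7 to 292.7 after DMSO. Cldn7 was called higher after LF3 (0.53, adjusted p 0.0497), with detection on 3 LF3, 1 ICG-001 and 1 DMSO arrays. It thus counts as measured mainly through the LF3 arrays, and the same limit applies as for Porcn. Krt8, the other measured epithelial marker, was detected on 8 arrays. It differed by -0.21 after LF3 (adjusted p 0.2), with every LF3 array below every DMSO array, and by -0.19 after ICG-001 (adjusted p 0.212). Leukocyte markers, of which Ptprc, Cd3e, Itgam and Adgre1 were undetected, summed to 116.0 to 132.2 after LF3, 130.0 to 146.5 after ICG-001 and 137.1 to 143.3 after DMSO. Lyz2, the measured marker of that list, differed from DMSO by -0.46 after LF3 (adjusted p 0.0619) and by 0.05 after ICG-001 (adjusted p 0.85). LF3 minus ICG-001 was -0.51 for Lyz2 (adjusted p 0.0259). It was detected on 1 LF3, 3 ICG-001 and 3 DMSO arrays, mainly those where it was higher, so the same limit applies. Endothelial markers, all 6 undetected, summed to 134.4 to 148.5 after LF3, 139.4 to 140.9 after ICG-001 and 132.9 to 137.1 after DMSO. The 9 stem or progenitor markers summed to 19340 to 21190 after LF3, 9311 to 10790 after ICG-001 and 19260 to 21010 after DMSO. Nearly all of that linear sum is Aldh3a1, with mean log2 levels of 14.24 after LF3, 13.14 after ICG-001 and 14.22 after DMSO. The highest level of any other marker in that list was 9.75, for Cd44. The sum therefore describes 1 gene and not the list. Of the 6 measured stem or progenitor markers, 2 were higher and 1 lower after ICG-001 than after DMSO. These were Cd44 (0.54, adjusted p 0.00196), Itga6 (0.44, adjusted p 0.0456) and the aldehyde dehydrogenase gene Aldh3a1 (-1.09). Itga6 was detected on 1 LF3, 3 ICG-001 and 1 DMSO arrays, mainly those where it was higher, so the limit given for Cldn7 applies to it. Sox9 alone was called after LF3, higher. The part of these markers in the differences of the Wnt pathway genes was not tested.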

How the data were processed

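Total RNA of 9 samples was hybridised to Illumina mouse bead arrays, and groups and replicate numbers come from the sample titles and treatment labels. Per the file headers, the deposited table gives each probe a signal intensity, linear and not normalized, and a detection p-value. The submitters' processing notes name GenomeStudio 2010.1. The authors' second deposited table holds processed intensities of the same arrays with negative values, medians of 9.3 to 9.4 and an unstated normalization, and it served only as an alternative.

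Here the intensities were background-corrected by detection p-value with an offset of 16, quantile-normalized (neqc) and put on a log2 scale. A probe entered the fit where 3 or more of the 9 arrays gave it a detection p under 0.01, as 10830 (42.1%) did. A linear model over all 9 arrays gave 3 contrasts (limma 3.58.1 in R 4.3.3), with Benjamini-Hochberg adjustment over the kept probes and a threshold of 0.05. The median standard error of a difference was 0.135, with precision limited by the number of arrays. The kept probe with the highest mean stands for a gene. Of the 25697 probes 23978 had 1 symbol, and the 1719 without a single symbol were not named. An "at least" fold sets a group without detection at the higher of its own level and the lowest detected level on each array. The script was tested on simulated data. Each measured member is named, each called member with all its array values, and of the other pathway genes the 4 with the lowest adjusted p in each contrast. Members, lists and tests were chosen with earlier results of these data known. Scalings, background corrections, filters, probe summaries, a replicate block and the removal of each array were tried as alternatives. Promoter sequences are those of RefSeq, build GRCm38.p6, with the 50 bases after the start left out.

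Replicate numbers came from the titles. Residuals of same-numbered arrays in different groups correlated between -0.23 and 0.14, so the numbers were not taken to pair the arrays.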

Additional observations from a re-analysis of the deposited data

How the results depend on the processing

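Of 569 alternative values of called differences of members, 486 kept their direction and stayed past the threshold, 83 kept the direction but no longer passed, and 0 reversed. The calls of Csnk1e and Kremen1 after both compounds and of Wnt5b after LF3 held in each alternative. So did those of Fzd7 after ICG-001 and of Fzd6 between the compounds. The ICG-001 calls of Porcn and Fzd2 held in each alternative that measured the gene. Both of these genes passed the detection filter mainly through the arrays where they were higher, so their calls are a description. Leaving out 1 array at a time, the count of members called ran from 5 to 13 after LF3, 5 to 12 after ICG-001 and 3 to 5 between the compounds, and the counts of 5 came without DMSO array 2. Median scaling left 2 called members between the compounds, both lower after LF3. Genes called after LF3 numbered 1636, but 1016 without LF3 array 2, 873 without DMSO array 2 and 915 without DMSO array 3, with fewer arrays in each fit. With the replicate block, 9, 9 and 3 members were called in LF3 minus DMSO, ICG-001 minus DMSO and LF3 minus ICG-001, and Ryk after LF3 (adjusted p 0.054), Dvl1 after ICG-001 (0.0547) and Fzd7 between the compounds (0.0644) no longer passed. Of the same-numbered pairs of arrays 2 of 9 had a correlation of residuals over 0.1, against 5 of 18 differently numbered pairs. Of 853 alternative values of uncalled differences, 41 passed and 18 changed sign, and the cause was not tested. After LF3 the sign changed under median scaling for Wnt5a (-0.20), Apc (-0.07) and Btrc (-0.04). In LF3 minus ICG-001 it changed for Wls under median scaling (-0.17), with array weights (-0.04) and without LF3 array 3 (-0.16), ICG-001 array 3 (-0.13) or the pair of arrays with the widest residuals (-0.16; -0.16 to 0.21 with 1 array left out), for Kremen1 under median scaling (-0.01) and for Ryk with the mean of its probes (0.09). It changed for Lrp6 with array weights (0.01), without LF3 array 1 (0.04), ICG-001 array 1 (0.05) or ICG-001 array 3 (0.04) and with the median over kept probes (0.02; -0.11 to 0.05 with 1 array left out), and for Wnt10a without LF3 array 3 (-0.06), ICG-001 array 3 (-0.10) or the widest pair (-0.06; -0.10 to 0.34 with 1 array left out). The scaling over kept probes and the removal of the widest pair were chosen after seeing the data. Levels near background limit Porcn, Fzd2 and Wnt10a most, and 5 of the 20 members are not measured when detection on all 9 arrays is required.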
